A study of Homo sapiens with 8 samples.

Results

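The branched-chain amino acids leucine, isoleucine and valine are broken down in mitochondria by a common route, which 10 genes represented here. The genes were chosen by symbol, as listed, and each was read at its highest transcript: the aminotransferases BCAT1 and BCAT2, the subunits BCKDHA, BCKDHB and DBT of the branched-chain ketoacid dehydrogenase, the leucine enzymes IVD, MCCC1 and MCCC2, and both subunits of propionyl-CoA carboxylase, PCCA and PCCB. They are 10 of the 12235 genes listed in any of the libraries. Ribosome profiling sequences the short mRNA fragments that ribosomes shield from nuclease, so the number of fragments on a coding sequence reflects how many ribosomes were on it. It was applied to HEK293T, a line of human embryonic kidney cells immortalized with the SV40 large T antigen, kept in sufficient medium (Suff) or starved of arginine (Arg-), leucine (Leu-) or methionine (Met-), overnight according to the labels. All media were made from a custom DMEM without sulfur amino acids, histidine, leucine and arginine, to which dialyzed serum and these amino acids were added, and each deficient medium left out the named one. Each condition was profiled once after treatment of the cells with cycloheximide (CHX), which arrests elongating ribosomes, and once without it, giving 8 libraries and 1 library per condition with no replicates. No comparison therefore has a test or a replicate error, and the intervals given are 95% intervals of read counting only.

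In this pathway an aminotransferase first moves the amino group of leucine, isoleucine or valine onto 2-oxoglutarate. The branched-chain ketoacid dehydrogenase then removes carbon dioxide from the resulting ketoacids and is the committed step. The routes diverge after it: IVD and the biotin enzyme methylcrotonoyl-CoA carboxylase act on leucine carbon, whereas propionyl-CoA carboxylase, also a biotin enzyme, takes up propionyl-CoA from isoleucine, valine and methionine. HEK293T cells take up these amino acids from the medium as essential nutrients, and leucine is thus both a protein building block and a substrate of this pathway.

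Values are RPKM, in which the footprint reads of an mRNA are divided by the length of its coding sequence and by the total of such reads in the library. RPKM is thus a share of a library, so that a change common to all mRNAs does not appear in it. Reads on coding sequences, recovered from the whole steps in which RPKM changes, numbered 538222 (Met-) to 6434043 (Leu-) with CHX and 1302523 (Met-) to 3139745 (Suff) without CHX. No mRNA with fewer than 64 reads was listed with CHX, or with fewer than 5 without CHX. With CHX, 7 members were listed in Suff, 10 in Arg-, 10 in Leu- and 3 in Met-, while without CHX 9 were listed in Suff, Leu- and Met- and 10 in Arg-. A member that is not listed had a density under a limit set by its coding length and the size of the library, and that limit is given in its place.

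The transcript to which the reads were assigned was the same in all libraries of a series but differed between the series for 7 of the 10 members. Among all 8684 genes listed in both series it differed for 27.4%. DBT, MCCC2 and PCCA kept the same transcript, and for BCKDHB both transcripts have the same coding sequence. For PCCB, the series with CHX used PCCB-210 (550 residues, ENST00000471595) and the series without CHX used PCCB-208 (570 residues, ENST00000468777), both on chromosome 3, plus strand, GRCh38. PCCB-208 holds 94.1% of the 30-nt windows of PCCB-210, which in turn holds 90.8% of those of PCCB-208, and the last coding exons differ. For IVD, the transcript of the series without CHX, IVD-206, has a coding exon of 90 nt at chr15:40407636-40407725 (plus strand) that IVD-203, used with CHX, lacks. This exon is shown because reads on it could count in 1 series only.

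IVD-206 exon: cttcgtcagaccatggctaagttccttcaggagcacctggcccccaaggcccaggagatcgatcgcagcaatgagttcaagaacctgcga

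For BCAT1, on the minus strand of chromosome 12, BCAT1-201 (386 residues, with CHX) and BCAT1-205 (398 residues, without CHX) share the last 1154 nt of their coding sequences and differ only at the start. The first 45 nt of each are given below, with the bases before the shared stretch in capitals. The capitals lie in a first coding exon of each transcript and the shared stretch starts in a common second one, so that the segments span chr12:24901847-24948932 and chr12:24901883-24902988.

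BCAT1-201 start: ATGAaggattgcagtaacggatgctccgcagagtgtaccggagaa
BCAT1-205 start: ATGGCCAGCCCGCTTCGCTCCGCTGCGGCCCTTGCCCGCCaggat

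MCCC1 differed most. MCCC1-213, to which reads were assigned with CHX, encodes 434 residues and holds 58.1% of the 30-nt windows of MCCC1-201 (725 residues), which was used without CHX. The site at which biotin is attached, a lysine between methionines near the end of the protein, lies at residue 681 of MCCC1-201 and is outside MCCC1-213, so footprints on that part of the mRNA could not count with CHX. PCCA carries the same kind of site at residue 694 of 728. The coding bases around both lysines are shown with the lysine codon in capitals. The MCCC1 segment spans an intron between chr3:183015561-183017289 on the minus strand, and the PCCA segment is chr13:100527699-100527728 on the plus strand.

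MCCC1 biotin site: gttatgatcgccatgAAGatggagcatacc
PCCA biotin site: gtgattgaagccatgAAAatgcagaatagt

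BCKDHA stood apart in the series without CHX, where it was listed in the Arg- library alone, with 9 reads (4.15 RPKM, interval 1.9 to 7.87). Its limits in the other libraries were 1.18 RPKM in Suff, 2.48 in Leu- and 2.85 in Met-. With CHX the same gene had 80 to 929 reads per library. Of the 1315 windows of 30 nt in the coding sequence of BCKDHA-202, the transcript used without CHX, 88.2% also occur in ENST00000540732, a coding transcript annotated under another gene identifier (ENSG00000255730) that overlaps BCKDHA at chr19:41376757-41425001. Reads in such windows do not map uniquely where both transcripts are in the reference. ENST00000540732 was listed in Suff and Arg- without CHX and in no library with CHX. Which transcripts the reference of each series held is not given in the sources used here, and the part of shared windows in the missing BCKDHA values was not tested. BCKDHA-201, the transcript used with CHX, shares even more, 91.7% of its 1306 windows, so that the same limit applies to its values with CHX, which are given below. Of the other members, PCCB-208 shared 0.714% of its windows with coding transcripts of other genes, and the others shared none.

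**Figure D1:**
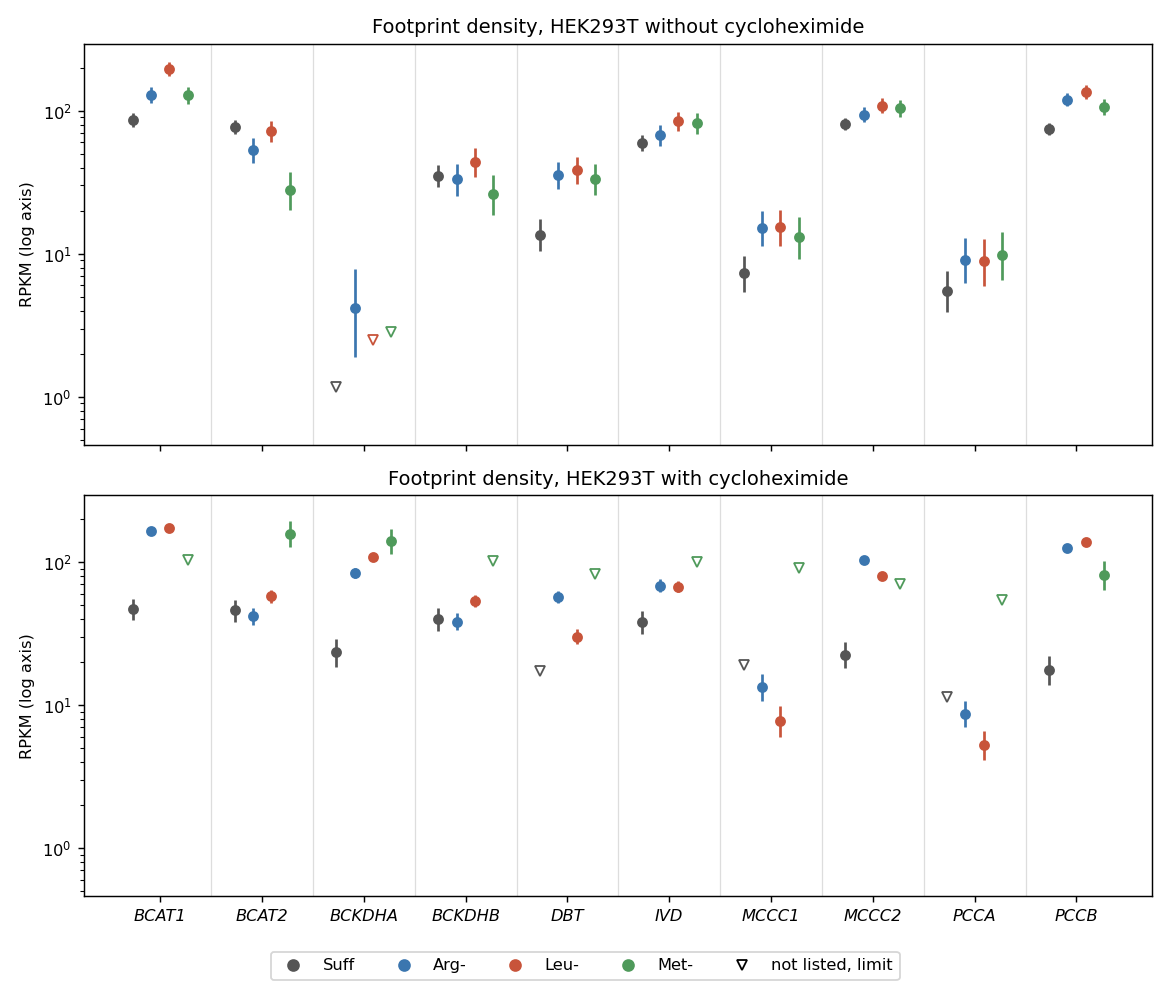
Footprint density (RPKM, log axis) of the 10 members in each of the 4 media, without cycloheximide (top) and with it (bottom); points are single libraries, bars are exact 95% Poisson intervals of the reads, and open triangles are the limits of members that were not listed. MCCC1 and PCCA lie well below their partners MCCC2 and PCCB, BCAT2 without CHX is lowest in Met-, and most Met- limits with CHX lie above the Suff values.

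At the first step of the pathway, the aminotransferases BCAT1 and BCAT2 differed from each other across the media. BCAT1, the cytosolic aminotransferase, had without CHX 85.7 RPKM in Suff, 129 in Arg-, 196 in Leu- and 128 in Met-. The Leu- library was the highest, Arg- and Met- lay close together, and Suff was the lowest. On the log2(RPKM + 1) scale the differences from Suff were 0.59 in Arg-, 1.19 in Leu- and 0.58 in Met-, and the folds of RPKM had counting intervals of 1.27 to 1.78, 1.97 to 2.68 and 1.25 to 1.79. With CHX, BCAT1 had 46.9 RPKM in Suff, 164 in Arg- and 173 in Leu-, so both starved libraries were higher (log2 differences 1.78 and 1.86). There Leu- exceeded Arg- by 1.05-fold, with an interval of 0.968 to 1.15 that includes 1. BCAT1 was not listed in Met- with CHX, where its limit of 103 RPKM was above the value in Suff.

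BCAT2, the mitochondrial aminotransferase, did not follow BCAT1, although the proteins share 58.8% of 362 aligned residues. Without CHX it had 77.4 RPKM in Suff, 53 in Arg-, 71.9 in Leu- and 27.7 in Met-. No starved library exceeded Suff, and the Met- value stood at 0.358 of it (interval 0.255 to 0.493, log2 difference -1.45). The log2 difference was -0.54 in Arg-, where the interval of the fold lay below 1 (0.542 to 0.859), and -0.11 in Leu-, where it included 1 (0.75 to 1.14). With CHX it had 45.9 RPKM in Suff, 41.8 in Arg-, 57.5 in Leu- and 158 in Met-. The order was then reversed for methionine, with 3.45 times the Suff value in Met- (2.6 to 4.57). Those 158 RPKM rest on 90 reads of the smallest library, and the transcript differed (BCAT2-202 with 352 residues with CHX, BCAT2-208 with 405 without CHX). At its Suff density BCAT2 would have had fewer than 64 reads in that library, so only a higher value could be listed. The interval does not allow for this.

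Because RPKM is scaled to length, both aminotransferases can be set side by side. BCAT1 over BCAT2 was 1.11 in Suff without CHX (interval 0.942 to 1.3) and 1.02 with CHX (0.797 to 1.31). It was 2.44 in Arg-, 2.73 in Leu- and 4.63 in Met- without CHX, and 3.92 in Arg- and 3 in Leu- with CHX. The lowest bound among the intervals of these 5 ratios was 1.93, so the cytosolic enzyme had the higher footprint density in each starved library in which both were listed. In Met- with CHX only BCAT2 was listed, above the limit of BCAT1.

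The subunits of the ketoacid dehydrogenase did not move alike. DBT forms the transacylase core of the complex. Without CHX it had 13.6 RPKM in Suff, 35.6 in Arg-, 38.3 in Leu- and 33.4 in Met-, and all starved libraries lay above Suff with the starved values close to one another. Its log2 differences of 1.32, 1.42 and 1.23 were past 2-fold in all 3 starvations, the only member of which this was true without CHX, and intervals of the fold were 1.86 to 3.69, 2 to 3.97 and 1.7 to 3.54. With CHX it had 57.3 RPKM in Arg- and 30.1 in Leu- and was under 17.3 in Suff, which places Arg- at least 3.31-fold and Leu- at least 1.74-fold above the limit of Suff. In Met- with CHX it was under 82.2 RPKM.

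BCKDHB, the beta subunit of the decarboxylase, had 35.1 RPKM in Suff, 33.2 in Arg-, 43.6 in Leu- and 26 in Met- without CHX. No difference from Suff exceeded counting error in that series, as each interval of the fold held 1. For BCKDHB with CHX, values were 39.9, 38.4 and 53.7 RPKM in Suff, Arg- and Leu-, the last 1.35-fold above Suff (1.1 to 1.66), with a limit of 101 in Met-. Its alpha partner BCKDHA had 23.4 RPKM in Suff, 83.7 in Arg-, 108 in Leu- and 141 in Met- with CHX, every starved library being above Suff (log2 differences 1.80, 2.16 and 2.54). The alpha over beta ratio was 0.587 in Suff (0.437 to 0.786), 2.18 in Arg- and 2.02 in Leu-. In the holoenzyme the alpha and beta subunits are present in equal number. The ratio without CHX, 0.125 in Arg-, rests on the 9 reads of BCKDHA and is not comparable.

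In the leucine branch, IVD, which oxidizes isovaleryl-CoA, had 59.4 RPKM in Suff, 67.4 in Arg-, 84 in Leu- and 81.5 in Met- without CHX. The fold over Suff was 1.41 in Leu- (1.15 to 1.73) and 1.37 in Met- (1.1 to 1.7), and the interval of the Arg- fold held 1. In the series with CHX it had 37.8, 68.5 and 67.1 RPKM in Suff, Arg- and Leu-, 1.81-fold and 1.78-fold above Suff, and was under 100 RPKM in Met-. MCCC2, the carboxyltransferase subunit of methylcrotonoyl-CoA carboxylase, had 80.4, 93.9, 108 and 104 RPKM in Suff, Arg-, Leu- and Met- without CHX. Its libraries spread little, with folds of 1.17, 1.35 and 1.29 over Suff. With CHX its Suff value was much lower, 22.4 RPKM, against 104 in Arg- and 79.8 in Leu- (4.64-fold and 3.56-fold), although the transcript was the same in both series. Its limit in Met- with CHX was 70.4 RPKM. MCCC1, the subunit that carries biotin, had 7.31 RPKM in Suff, 15.1 in Arg-, 15.3 in Leu- and 13 in Met- without CHX, on 37 to 53 reads. Each starved library was above Suff, with folds of 2.07 (1.38 to 3.1), 2.1 (1.39 to 3.17) and 1.78 (1.13 to 2.78). On the log2(RPKM + 1) scale these were 0.95, 0.97 and 0.76 and thus short of 2-fold. Footprints of the shorter MCCC1-213 with CHX gave 13.3 RPKM in Arg- and 7.76 in Leu-, with limits of 19.2 in Suff and 91.3 in Met- that do not order the conditions.

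In the propionate branch, PCCB, the carboxyltransferase subunit, had 74.9 RPKM in Suff, 119 in Arg-, 135 in Leu- and 106 in Met- without CHX. Suff was again lowest, and the folds were 1.59 (1.37 to 1.85), 1.8 (1.55 to 2.08) and 1.42 (1.2 to 1.67). With CHX it had 17.5, 126, 138 and 81.1 RPKM in the same order. There the 7.88-fold difference of Leu- from Suff (6.24 to 10.1) was the largest fold of any member listed in both libraries of a pair. The Suff value rests on 74 reads and the Met- value on 72, close to the lowest listed number of 64. The series differed mainly in Suff, since PCCB had 119 and 126 RPKM in Arg- and 135 and 138 in Leu- without and with CHX. PCCA, which carries biotin, had 5.53, 9.08, 8.86 and 9.83 RPKM in Suff, Arg-, Leu- and Met- without CHX, on 28 to 38 reads. Only the Met- fold had an interval that left out 1 (1.78, 1.05 to 2.97). With CHX it had 8.68 RPKM in Arg- and 5.27 in Leu- and was under 11.4 in Suff and 54.4 in Met-.

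Both carboxylases pair a biotin-carrying subunit with a carboxyltransferase subunit in equal numbers, and in both the carboxyltransferase had the higher footprint density in each library that listed the pair. MCCC2 over MCCC1 was 11 in Suff, 6.22 in Arg-, 7.05 in Leu- and 7.97 in Met- without CHX, and 7.81 in Arg- and 10.3 in Leu- with CHX. PCCB over PCCA was 13.5, 13.1, 15.2 and 10.8 without CHX, and 14.6 in Arg- and 26.2 in Leu- with CHX. The lowest bound among these 12 intervals was 4.61. MCCC1-201 and PCCA-202 are themselves 42.5% identical over 650 aligned residues, and MCCC2-201 and PCCB-208 34.1% over 487.

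**Figure D2:**
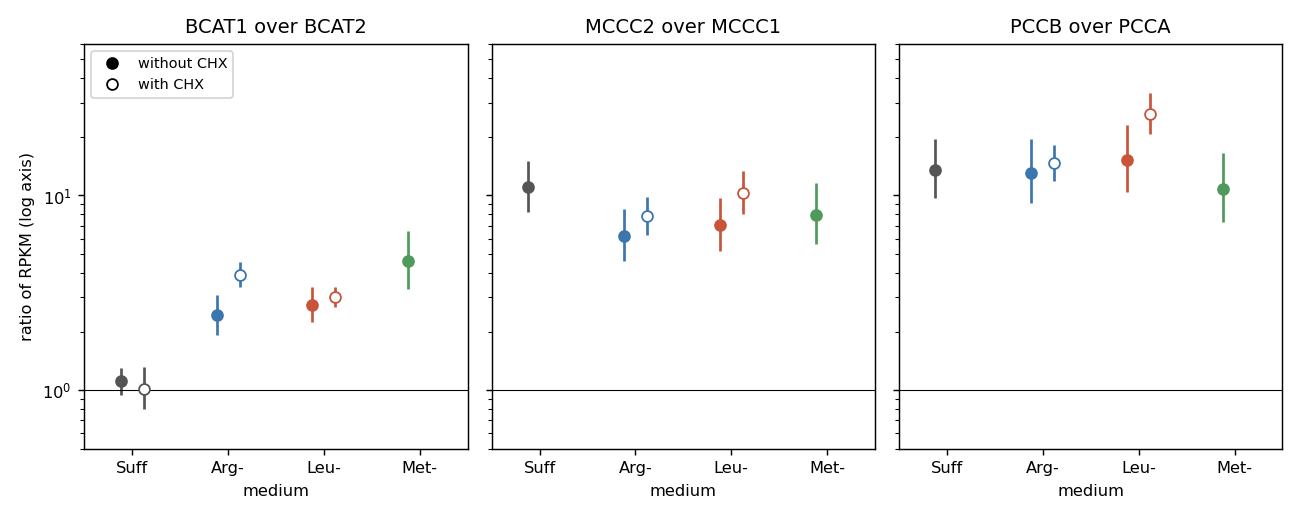
Ratio of RPKM (log axis) of BCAT1 over BCAT2, MCCC2 over MCCC1 and PCCB over PCCA in each medium, filled points without cycloheximide and open points with it; bars are 95% intervals of read counting in single libraries. BCAT1 over BCAT2 is near 1 in both Suff libraries and 2.44 to 4.63 in the starved libraries that list both genes (Met- with CHX lists BCAT2 only), and the carboxyltransferase subunits exceed their partners throughout.

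Over the pathway as a whole, counts at 2-fold on the log2(RPKM + 1) scale were restricted to mRNAs that averaged 10 RPKM or more over the pair. Without CHX 8 of the 10 members passed this minimum in each comparison, PCCA and BCKDHA being too low. MCCC1, with 7.31 RPKM in Suff, passed against Suff only through its higher starved values. In Leu- against Suff, BCAT1 and DBT were at least 2-fold higher and no member was 2-fold lower, where 6.89% of all 7565 mRNAs were higher and 2.12% lower. In Arg- against Suff 1 member (DBT) was higher and 0 lower, against 8.33% and 6.05% of 7466 mRNAs. In Met- against Suff 1 member (DBT) was higher and 1 (BCAT2) lower, against 20.2% and 5.47% of 7897 mRNAs. The median log2 difference of the members was 0.40 in Arg-, 0.66 in Leu- and 0.47 in Met-, beside -0.02, 0.14 and 0.31 over all mRNAs. Above Suff were 6, 7 and 6 of the 8 members, where 48.6%, 61% and 65.5% of all mRNAs were. Among the 9 members listed in the libraries compared, the interval of the fold lay above 1 for 4 in Arg-, 6 in Leu- and 7 in Met-. It did so for 26.1% of 10392, 29.0% of 10420 and 42.8% of 10310 mRNAs listed in both libraries under the same transcript. The interval lay below 1 for 1 (BCAT2), 0 and 1 (BCAT2), against 21.1%, 12.1% and 14.7%. Those shares include mRNAs under the minimum of 10 RPKM. Whether an interval leaves out 1 also depends on the reads of an mRNA, which were not matched. These comparisons share the Suff library, so they do not count as separate observations of it.

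With CHX 8 members passed in Arg- and in Leu-. At least 2-fold higher were 5 in Arg- (BCAT1, BCKDHA, DBT, MCCC2 and PCCB), where 29.7% of 6224 mRNAs were, and the same 5 genes in Leu-, where 26.3% of 6232 were. No member was 2-fold lower, against 18.4% and 6.32%. Of all mRNAs, 1007 in the Arg- pair and 1009 in the Leu- pair were not listed in Suff. Taken as 0 there, they were all counted as higher, which raises the shares over all mRNAs. The medians of the members were 1.79 and 1.82, beside -0.01 and 0.21 over all mRNAs. Both comparisons share the Suff library with CHX, so they do not count as separate observations of it. In that library MCCC2 (22.4 RPKM) and PCCB (17.5) were lower than in Suff without CHX (80.4 and 74.9), whereas BCKDHB was not (39.9 against 35.1). DBT is counted with its absence in Suff taken as 0. It is above its limit by 1.74-fold in Leu-, which is short of 2-fold. In Met- 7 passed, of which BCAT2, BCKDHA and PCCB were higher and BCAT1, BCKDHB, IVD and MCCC2 were counted as lower, against 21.0% and 61.9% of 4805 mRNAs. The last 4 were not listed in Met-, and their limits there were above their Suff values, so these 4 counts give the depth of that library and no direction for the genes. BCAT1, for instance, could have been up to 2.19-fold above Suff. BCAT2, BCKDHA and PCCB had 90, 101 and 72 reads in Met-, where none under 64 was listed. At their Suff densities they would have had fewer than 64 reads there. A member could thus be listed in Met- only when higher, so the numbers of higher and lower members give no balance of directions.

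**Figure D3:**
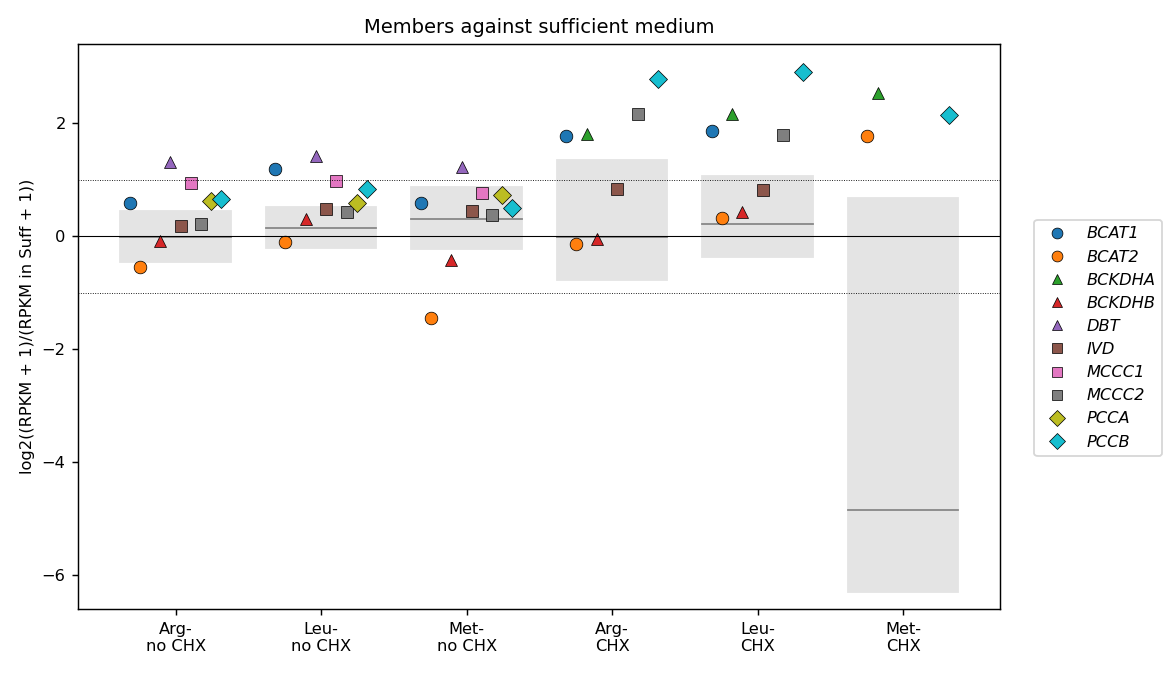
Log2 difference from sufficient medium for each member listed in both libraries (circles aminotransferases, triangles ketoacid dehydrogenase, squares leucine branch, diamonds propionate branch); grey boxes span the interquartile range of all mRNAs that averaged 10 RPKM or more, with the median as a line, and dotted lines mark 2-fold. Without CHX the members lie mostly above the median of all mRNAs, with BCAT2 in Met- at -1.45 as the lowest, and with CHX the Met- box is set by mRNAs absent from that library.

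Whether lack of leucine, itself a substrate of the pathway, differed from lack of the other amino acids was read from the starved libraries directly. Without CHX, Leu- exceeded Arg- for all 8 members that passed the minimum, by a median log2 difference of 0.26 against 0.15 over all 7725 mRNAs, of which 63.5% were above 0. Relative to that overall median 6 of the 8 were higher, and DBT (-0.05) and MCCC1 (-0.13) were lower. Counting intervals left out 1 for BCAT1 (1.52-fold, 1.29 to 1.8) and BCAT2 (1.36-fold, 1.04 to 1.77) and for no other member. These are 2 of 9 above 1 and 0 below, against 20.2% and 8.23% of 10234 mRNAs listed in both libraries, not matched for reads. Neither direction had a member past 2-fold, and over all mRNAs 3.65% were higher and 1.36% lower. Leu- also exceeded Met- for all 8, by a median of 0.28 against -0.15 over 8133 mRNAs, of which 40.6% were above 0. PCCA, listed but under the minimum, went the other way, at 0.975 of Arg- and 0.901 of Met-, with intervals that held 1. BCAT2 (2.59-fold, 1.83 to 3.73) was past 2-fold, BCAT1 (1.53-fold), BCKDHB (1.68-fold) and PCCB (1.27-fold) also had intervals above 1, and no member was 2-fold lower. These 4 of 9 stand beside 15.3% of 10107 mRNAs listed in both libraries with an interval above 1, and the 0 below 1 beside 27.8%. Over all mRNAs 5.07% were 2-fold higher and 10.2% lower in that comparison.

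With CHX the members lay on both sides of Arg-. Of 10 members listed in both libraries, BCAT2, BCKDHA, BCKDHB and PCCB had intervals above 1 and DBT, MCCC1, MCCC2 and PCCA below 1. The shares were 38.9% and 29.4% of 7619 mRNAs listed in both libraries, not matched for reads. DBT was the farthest, at 0.525 of the Arg- value (0.45 to 0.613), whereas without CHX it was 1.08-fold higher with an interval from 0.784 to 1.48. No member of the 9 that passed was past 2-fold, where 8.66% of 7150 mRNAs were higher and 4.27% lower, and the median of 0.08 lay below that of all mRNAs, 0.15, relative to which BCAT1 (-0.08) and PCCB (-0.02) were also lower. BCAT2 was above Arg- by 1.36-fold without CHX and 1.38-fold with CHX. BCKDHB was above it by 1.32-fold without CHX, where the interval of 0.93 to 1.86 held 1, and by 1.4-fold with CHX. Against Met- with CHX 8 members passed and 3 were listed in both, BCAT2 at 0.363, BCKDHA at 0.769 and PCCB at 1.7 times Met-. By the read limit of the Met- library, BCAT2 could be listed there only above its Leu- value. Relative to the median of all mRNAs, 4.99 with 3859 of 5876 absent from Met-, PCCB was lower (-4.23). Counting absent mRNAs as 0 put 5 members above 2-fold and 1 below, against 68.0% and 15.6% of 5876 mRNAs, and the 5 were all absent from Met-. By the limits of that library only BCAT1 (at least 1.68-fold) and MCCC2 (at least 1.13-fold) lay above it.

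**Figure D4:**
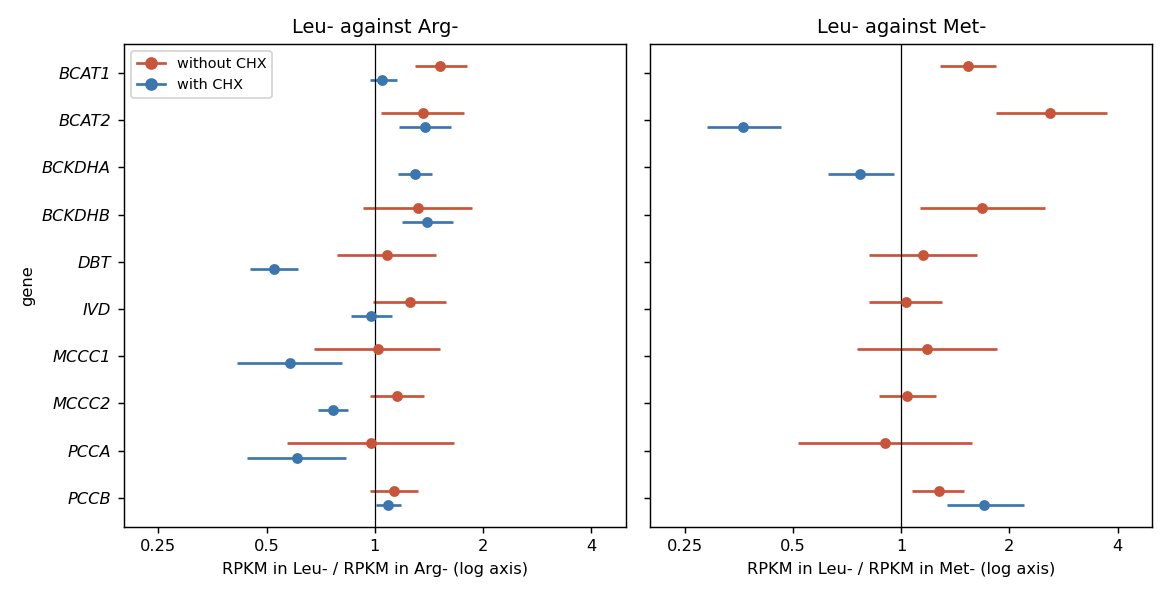
RPKM in leucine-deficient over arginine-deficient (left) and over methionine-deficient medium (right) for each member listed in both libraries, on a log axis, with 95% intervals of read counting in single libraries; red is without cycloheximide and blue with it. Without CHX most values lie at or above 1, and BCAT2 against Met- lies on opposite sides of 1 in the series. With CHX, BCAT2 could be listed in Met- only above its Leu- value.

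Within the series without CHX, 20 of the 27 steps between neighbours in the order of a member's 4 media had an interval that held 1. The 7 that did not were Leu- over Arg- and Met- over Suff for BCAT1, Leu- over Arg- and Arg- over Met- for BCAT2, and Met- over Suff for DBT, MCCC1 and PCCB. Among the 8 members that passed, BCAT2 had the widest range over the starvations, 1.34 on the log2 scale, followed by BCKDHB with 0.72 and BCAT1 with 0.61. The other members spanned at most 0.34. The genes whose 3 log2 differences were nearest to those of BCAT2, by Euclidean distance among 7202 genes, were PFDN2 (0.0926), LIMD2 (0.107) and ARRDC1 (0.127). PFDN2, a prefoldin subunit, had -0.50 in Arg-, -0.15 in Leu- and -1.52 in Met-.

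Members differed in the amino acids that their synthesis needs. Leucine made up 7.02% to 13.8% of the residues in the transcripts used without CHX, beside a median of 9.75% over all 11476 listed transcripts. BCAT2 was at the top with 56 leucines in 405 residues, and MCCC1, PCCB, BCKDHA and BCKDHB were at the bottom with 7.02% to 7.14%. Methionine ranged from 1.02% in BCKDHB, which has 4 methionines in 392 residues, to 3.59% in MCCC1, beside a median of 2.12%. Valine was above the median of 5.93% in each member except BCKDHA (4.69%), and was highest in PCCA (9.48%). BCAT2, with the largest share of leucine, also had the lowest log2 difference of Leu- from Suff among the members, -0.11, with a counting interval of the fold that held 1. It was the lowest member in Arg- (-0.54) and Met- (-1.45) too, and its difference in Leu- was the smallest of these. BCAT1 and IVD, next with 11.1% leucine each, had 1.19 and 0.49. MCCC1, PCCB and BCKDHB, at the bottom, had 0.97, 0.84 and 0.31. The share of methionine in BCAT2 (2.96%) was below those of MCCC1, IVD and PCCA, each of which lay above Suff in Met-. BCKDHB, with the lowest share, had -0.42 in Met-. These are descriptions over 10 genes, and no relation was tested.

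Of 25 further genes of the pathway, listed as regulators, later enzymes, cofactor enzymes and transporters, 22 passed the minimum in Arg- without CHX and 23 in Leu- and Met-. At least 2-fold higher were 3 in Arg- and the same 3 in Leu- (ALDH6A1, MMUT and SLC3A2) and 4 in Met- (MMUT, HLCS, SLC7A5 and SLC3A2). MMUT and HLCS, with 8.62 and 8.32 RPKM in Suff, passed the minimum only through their starved values, so they could be counted only when higher. At least 2-fold lower were 1 in Arg- (PPM1K), 1 in Leu- (MMACHC) and 0 in Met-. The shares over all mRNAs were 8.33%, 6.89% and 20.2% higher and 6.05%, 2.12% and 5.47% lower, so that 4 of 23 in Met- was no more than the background. The list had medians of 0.06, 0.31 and 0.45 beside -0.02, 0.14 and 0.31 over all mRNAs. MMUT, the mutase that follows propionyl-CoA carboxylase, had 8.62 RPKM in Suff and 20.1, 24.9 and 26.9 in Arg-, Leu- and Met-. ALDH6A1, a dehydrogenase of the valine branch, had 17.6 RPKM in Suff, 37.1 in Arg-, 38.2 in Leu- and 25.8 in Met-, and with CHX was listed only in Arg- (31.5) and Leu- (22.1).

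The cobalamin-handling gene MMACHC was the single gene of that list 2-fold lower in Leu- without CHX, at 29.9 RPKM against 61.1 in Suff, 45.3 in Arg- and 58.8 in Met-. SLC3A2, the heavy chain of the leucine transporter, had 89.4 RPKM in Suff and 397, 345 and 406 in Arg-, Leu- and Met- without CHX, and 35.7 against 310, 169 and 901 with CHX. It was past 2-fold in all 6 comparisons. Its light chain SLC7A5 was past 2-fold in Met- in both series (log2 differences 1.63 with CHX and 1.41 without CHX). BCKDK, the kinase that switches the ketoacid dehydrogenase off, did not pass 2-fold without CHX, with 80.5 RPKM in Suff, 65.6 in Arg-, 59.9 in Leu- and 110 in Met-. DLD, the dehydrogenase subunit that this complex shares with others, had 125, 136, 196 and 151 RPKM in the same order. With CHX, DLD had 31.7 RPKM in Suff against 230 in Arg- and 162 in Leu- (log2 differences 2.82 and 2.31) and was not listed in Met-, while BCKDK had 117, 68.5 and 59.6 and was not listed in Met- either. With CHX 17, 17 and 13 genes of the list passed in Arg-, Leu- and Met-, 7, 7 and 2 (SLC7A5 and SLC3A2) were higher, and 0, 0 and 8 were lower or absent, against 29.7%, 26.3% and 21.0% higher and 18.4%, 6.32% and 61.9% lower over all mRNAs, with medians of -0.26, 0.59 and -4.70 beside -0.01, 0.21 and -4.84. Of the 7 in Arg- and in Leu-, only DLD, ACAT1 and SLC3A2 were listed in Suff, and PPM1K, HIBCH, ALDH6A1 and OXCT1 were counted with their absence there as 0.

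The same list was set between the starved libraries. In Leu- against Arg- without CHX no gene of the 23 that passed was past 2-fold (median 0.30 beside 0.15), and with CHX 1 of 20 was higher (ACAD8) and 0 lower (median 0.17 beside 0.15). Against Met-, 0 of 24 were higher and 1 (SLC25A44) lower without CHX (median -0.17 beside -0.15), and 12 of 17 were higher and 2 (SLC7A5 and SLC3A2) lower with CHX (median 5.13 beside 4.99), where absence from Met- sets the count. The background of these comparisons, and of those of the related enzymes that follow, is that given for the members. Among 9 related enzymes, subunits of the pyruvate and 2-oxoglutarate dehydrogenases and other biotin carboxylases, 5 passed against Suff without CHX, none was past 2-fold in Arg- or Leu- and 1 (OGDH) was higher in Met-, with medians of -0.24, 0.01 and 0.04. With CHX 4 passed, with 2 higher in Arg- (DLAT and DLST), 1 in Leu- (DLST) and 3 in Met- (PDHB, DLAT and DLST), and only PDHX, absent from Met-, counted as lower. The medians were 0.81, 0.65 and 1.20. In Leu- against Arg- none of these passed 2-fold in either series (medians 0.17 and 0.05), and against Met- OGDH was lower without CHX (median -0.03 over 6) and PDHX, absent from Met-, was counted as higher with CHX (median -0.26 over 4).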

How the data were processed

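The authors deposited RPKM per Ensembl transcript, 1 table per library. By the methods, adaptors were trimmed by a Perl script (the submitters' notes name cutadapt), reads were filtered by length, trimmed of low-quality ends (Trimmomatic) and aligned to the human transcriptome (GRCh38) with Bowtie without mismatch, and unique reads were kept. The annotation release is not given in the sources used here. The tables without CHX are marked as having duplicates removed. The series thus differ in CHX, duplicate removal, lowest read number and transcript, which cannot be told apart.

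GENCODE release 44 named 96.7% to 97.1% of the transcripts, and the highest transcript of a gene was used. Reads were recovered from the steps of RPKM times coding length. Within a tolerance of 0.01 read, 97.1% to 97.4% of matched transcripts were whole, with the stop codon in the length only without CHX. For IVD a length 9 nt above that of release 44 gave whole reads (within 0.02) in its libraries and was used. Levels have exact Poisson and folds conditional exact (Clopper-Pearson) 95% intervals. Both cover counting error only and treat each read as an independent molecule. PCR copies are not independent, so intervals on reads that include such copies are too narrow. Differences were log2((RPKM + 1)/(RPKM + 1)). The added 1 understates changes of low mRNAs, whereas taking absent mRNAs as 0 can overstate theirs. Pairs averaging 10 RPKM or more were counted and called past 2-fold, with no test. Windows of 30 nt were searched in 110944 coding transcripts.

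The members and lists were chosen with earlier results of these data known. Named were the members, genes of the list of 25 past 2-fold the same way in both series of a starvation or in Leu- without CHX, and the 3 genes nearest to the member of widest range. A gene of the original list and a sequence are not reported here. Other genes of the lists were named after their values were seen. Alternatives changed the pseudocount, the minimum, absent mRNAs, the transcript and the centring. The scripts, tested on simulated data, ran in Python 3.11.15 with scipy 1.17.1, pandas 2.3.3, matplotlib 3.10.9 and numpy 2.4.6.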

Additional observations from a re-analysis of the deposited data

Results flagged for a closer look

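BCAT2 under methionine deficiency lay on opposite sides of sufficient medium in the series. Its log2 difference was 1.77 with CHX (158 against 45.9 RPKM, 90 and 124 reads) and -1.45 without CHX (27.7 against 77.4 RPKM, 44 and 296 reads), and both counting intervals left out a fold of 1. The difference between the series was not tested, with 1 library for each value. No mRNA under 64 reads was listed with CHX, and at its Suff density BCAT2 would have had fewer in Met-. A value at or below Suff could therefore not appear there, which the interval does not allow for. The transcripts (BCAT2-202 and BCAT2-208) share 83.6% to 96.5% of their 30-nt windows, and the Met- library with CHX held 538222 reads and listed 3 of the 10 members.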

How the results depend on the processing

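Without CHX, 300 of 304 differences of single members under the alternatives moved by less than counting error; with CHX 251 of 291 did. Many of these could not move, because a minimum or a restriction to mRNAs present in both libraries leaves the difference of a remaining member as it is. These counts are thus no measure of stability. A minimum or a pseudocount cannot change the sign of a difference. Summed or fixed transcripts changed no sign, and no member changed its highest transcript within a series. Counts without CHX moved as follows, in members at least 2-fold higher than Suff unless stated. A pseudocount of 0.1 gave 2 in Arg- and 3 in Leu-, and no minimum gave 2 in Arg- and 1 lower in Leu- against Arg-. A minimum mean RPKM of 50 gave 0 in Arg-, 1 in Leu-, 0 in Met- and 0 in Leu- against Met-, because fewer members passed. Centring gave 0 in Met-, and with CHX 1 lower in Leu- against Arg-. With CHX, comparisons with Met- depended on absent mRNAs. The members lower than Suff were 0 with a minimum of 50, with mRNAs present in both libraries, with centring and with absent members at their limits. Their median was -7.82 with a pseudocount of 0.1, 2.15 with a minimum of 50 or with mRNAs present in both, 0.29 centred and 0.00 with limits. For Leu- against Met- 1, 0, 3 and 0 were higher with a minimum of 50, present in both, centred and with limits, and 3 were lower centred. The medians were 8.65 with a pseudocount of 0.1, 0.19 with a minimum of 50, 4.04 with no minimum, -0.38 present in both, 0.37 centred and 0.00 with limits. Centring changed the sign of 7 single differences: with CHX MCCC2 in Met- against Suff (0.29), DBT (-0.03) and PCCB (-4.23) in Leu- against Met-, and BCAT1 (-0.08) and PCCB (-0.02) in Leu- against Arg-, whose median also became -0.08; without CHX DBT (-0.05) and MCCC1 (-0.13) in Leu- against Arg-. With limits the Leu- median against Suff was 1.30. Setting absent members at limits was chosen after seeing the data. Summed or fixed transcripts moved no count or median. No paired analysis was possible because the labels give no replicate numbers and each condition had 1 library in a series; a joint fit of medium and series over the 8 libraries was not made. With no replicates no library could be left out, and 7 members were not listed in the Met- library with CHX, the smallest; the cause was not tested.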
